A study of Mus musculus with 3 samples.

Results

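The 8 genes described here encode the pore-forming alpha1 subunits of the voltage-gated calcium channels found in neurons: Cacna1a, Cacna1b, Cacna1c, Cacna1d, Cacna1e, Cacna1g, Cacna1h and Cacna1i, of 32285 genes in the files. They were taken by name as the neuronal members of the family, and the choice of cells used none of them. Cacna1s, known from skeletal muscle, and Cacna1f, known from the retina, were read beside them. Their transcripts were counted in brain nuclei of uninjured C57BL/6 mice. A retrograde label given in the lumbar spinal cord marked the neurons with an axon there. Labelled tissue was cut out of sagittal slices under fluorescence, and nuclei were sorted and read by droplet-based single-nucleus RNA sequencing, in which each captured RNA molecule is counted by a unique molecular identifier (UMI). The 3 libraries formed 1 group, labelled as biological replicates 1, 2 and 3. The sources used here do not give the tracer, the age of the animals or the number of animals per library. The p-values below therefore measure only how differences between types vary over these libraries.

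A voltage-gated calcium channel opens when the membrane is depolarised and lets calcium into the cell, where it triggers transmitter release, opens calcium-activated potassium channels and reaches the nucleus. The alpha1 subunit forms the pore and the voltage sensor and gives each channel its current type. Cacna1c and Cacna1d form L-type channels (the Cav1 subfamily), which are long-lasting, sit largely on cell bodies and dendrites and couple activity to gene expression. Cacna1a forms P/Q-type, Cacna1b N-type and Cacna1e R-type channels (Cav2). P/Q-type and N-type channels carry most of the calcium for release at presynaptic endings, and R-type channels contribute in dendrites, spines and endings. Cacna1g, Cacna1h and Cacna1i form T-type channels (Cav3), which open near the resting potential, are transient and support burst firing. In layer V cells of the cortex, which give rise to the corticospinal tract, dendritic calcium spikes are well known. Orexin neurons of the lateral hypothalamus and paraventricular neurons are the best known hypothalamic cells with spinal axons.

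Nuclei were typed by the rule that defines the comparison. A nucleus needed at least 1000 genes, at most 5% mitochondrial UMIs and at least 2 UMIs of a gate, and the gates were read in order on CPM, the counts of a gene scaled to a common library total. A nucleus was cortical at 300 CPM of Tox, red nucleus at 150 CPM of Ttc6, Chst9 and Rreb1 together, hypothalamic at 150 CPM of Sim1 or of Ros1 and Rfx2 together, and hindbrain at 200 CPM of Meis1 and Meis2 together. Among 8901 nuclei this gave 4052 cortical, 330 red nucleus, 148 hypothalamic and 2760 hindbrain nuclei, and 1611 stayed untyped. Every type was found in every library. The smallest sets were the hypothalamic nuclei, with 53, 43 and 52 nuclei in replicates 1, 2 and 3.

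The labels of the types were checked against marker genes that the gates do not use. The summed level of 5 cortical markers (Bcl11b, Fezf2, Crym, Slc17a7 and Tbr1) was 333 to 461 CPM in cortical nuclei, 55.5 to 112 CPM in hindbrain, 48.3 to 69.4 CPM in red nucleus and 35.4 to 74.7 CPM in hypothalamic nuclei. The red nucleus list (Pou4f1, Slc17a6 and Pvalb) reached 131 to 154 CPM in red nucleus nuclei, but also 96.0 to 119 CPM over hypothalamic and hindbrain libraries, against at most 8.73 CPM in cortical nuclei. The hypothalamic list, which holds the neuropeptide genes Hcrt and Oxt, reached 1055 to 1433 CPM in hypothalamic nuclei and at most 140 CPM in the other types. The hindbrain list reached 157 to 188 CPM in hindbrain nuclei, against 8.56 to 10.5 CPM in cortical nuclei, but 105 to 140 CPM in red nucleus and 110 to 112 CPM in hypothalamic nuclei. The vesicular glutamate transporter Slc17a6, which is on both of these lists, made up most of those values, at a mean of 113 CPM in red nucleus, 103 CPM in hypothalamic and 100.2 CPM in hindbrain nuclei, and Hoxb4 and Hoxb5 were at 0 in red nucleus nuclei. Summed markers of inhibitory neurons reached at most 22.8 CPM, of monoaminergic neurons 27.4 CPM, of endothelial cells 32.7 CPM, of cholinergic neurons 1.30 CPM, of astrocytes 9.97 CPM and of oligodendrocyte precursors 3.74 CPM in any typed sum, and Chat and Slc5a7 were at 0 in hypothalamic nuclei. Cortical nuclei also passed the hindbrain gate in 371 of 910, 552 of 1385 and 700 of 1757 cases, and libraries shared at most 3 barcodes. Depth differed between types, with a median of 12598, 26730 and 19322 UMIs per cortical nucleus in replicates 1, 2 and 3, against 6037, 10981 and 8594 per hypothalamic nucleus, 7525, 15312 and 10940 per hindbrain nucleus and 9388, 20499 and 11798 per red nucleus nucleus. The 3 libraries held 27435221, 74287112 and 60490064 UMIs.

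The genes lie on 8 chromosomes of the mouse build mm10 (GRCm38), and their positions are those of the GENCODE M21 annotation. Cacna1a (ENSMUSG00000034656) spans chromosome 8 from 84388440 to 84640246 on the plus strand, and Cacna1i (ENSMUSG00000022416) spans chromosome 15 from 80287238 to 80398279 on the plus strand. The other 6 lie on the minus strand. Cacna1b (ENSMUSG00000004113) spans chromosome 2 from 24603887 to 24763152, Cacna1c (ENSMUSG00000051331) chromosome 6 from 118587240 to 119196418 and Cacna1d (ENSMUSG00000015968) chromosome 14 from 30039939 to 30491455. Cacna1e (ENSMUSG00000004110) spans chromosome 1 from 154390731 to 154884501, Cacna1g (ENSMUSG00000020866) chromosome 11 from 94408391 to 94474198 and Cacna1h (ENSMUSG00000024112) chromosome 17 from 25374285 to 25433783. The spans run from 59.5 kb for Cacna1h to 609 kb for Cacna1c. Counted genes on the opposite strand overlap Cacna1a (Gm16183), Cacna1c (Dcp1b), Cacna1d (Chdh and Dcp1a) and Cacna1h (Tpsg1), and the sources used here do not say whether the counting used strand.

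RefSeq promoter windows (GRCm38.p6) were found for 5 of the 8 genes. Shown are the 250 bases upstream of Cacna1i, which had the widest difference of the 8 between cortical and hypothalamic nuclei, and of Cacna1b, which had the narrowest range of mean levels over the types. Each of them has a single window in the table, which lies outside its own annotated exons. The windows are chr15:80286988-80287237 (plus strand) for Cacna1i and chr2:24763153-24763402 (minus strand) for Cacna1b, both written 5′ to 3′ with capitals for any match to GGGCGG (the Sp1 box), TATAAA (the TATA box) or CAGATG (an E-box) on either strand, with overlapping matches counted.
Cacna1i: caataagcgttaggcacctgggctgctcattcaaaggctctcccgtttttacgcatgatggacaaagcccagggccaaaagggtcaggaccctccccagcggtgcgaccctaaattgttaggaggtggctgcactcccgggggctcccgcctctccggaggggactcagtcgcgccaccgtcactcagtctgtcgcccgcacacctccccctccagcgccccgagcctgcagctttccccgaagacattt
Cacna1b: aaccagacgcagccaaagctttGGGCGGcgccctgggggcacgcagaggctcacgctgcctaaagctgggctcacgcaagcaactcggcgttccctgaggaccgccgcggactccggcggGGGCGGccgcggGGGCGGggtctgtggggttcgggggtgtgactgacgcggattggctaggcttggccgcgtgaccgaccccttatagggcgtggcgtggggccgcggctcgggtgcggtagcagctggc
The Cacna1i window held none of these 3 motifs, with 62.4% GC and 16 CpG. The Cacna1b window held GGGCGG 3 times, with 72% GC and 29 CpG. Of 32851 windows of this length over all genes, 32.7% held GGGCGG, 12.4% TATAAA and 14.4% CAGATG on either strand, and the medians were 52.4% GC and 6 CpG. A match here is a description of letters only.

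UMIs of all 8 subunits were counted in all 4 types, and their mix differed between cortical nuclei and the other types. The mix is the share of each subunit among the UMIs of the 8, so it does not depend on how libraries are scaled. The P/Q-type gene Cacna1a was the largest part everywhere, at 30.0% ± 1.81 of the mix in cortical, 34.7% ± 4.83 in red nucleus, 29.3% ± 3.31 in hypothalamic and 31.1% ± 3.59 in hindbrain nuclei (SD, n = 3 libraries, as for all values with ±). What set cortical nuclei apart was the R-type gene Cacna1e, with 26.4%, 24.3% and 24.6% of the mix in replicates 1, 2 and 3. In hypothalamic nuclei Cacna1e held 17.9%, 12.8% and 12.5%, in hindbrain nuclei 14.1%, 10.7% and 10.7%, and in red nucleus nuclei 11.5%, 6.98% and 7.81%. Within the hypothalamic type, nuclei of the Ros1 and Rfx2 gate alone held 23.7%, 17.1% and 17.8%, close to cortical nuclei in replicate 1. Those of the Sim1 gate alone held 12.4%, 8.66% and 9.95%. Taken as whole types, none of the others overlapped cortical nuclei, and replicate 1 was the highest library of Cacna1e in every type. The L-type gene Cacna1c ran the other way, with 10.6%, 9.90% and 9.03% in cortical nuclei against 16.8% to 21.2% over all libraries of the other types. By subfamily, Cav1 held 31.2% ± 0.500 in cortical, 40.9% ± 2.43 in red nucleus, 41.1% ± 3.02 in hypothalamic and 42.1% ± 0.786 in hindbrain nuclei. Cav2 held 64.4% ± 0.247, 56.6% ± 2.41, 56.1% ± 2.44 and 55.7% ± 0.584 in the same order, and Cav3 held 4.49% ± 0.299, 2.45% ± 0.284, 2.88% ± 0.598 and 2.16% ± 0.270.

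**Figure D1:**
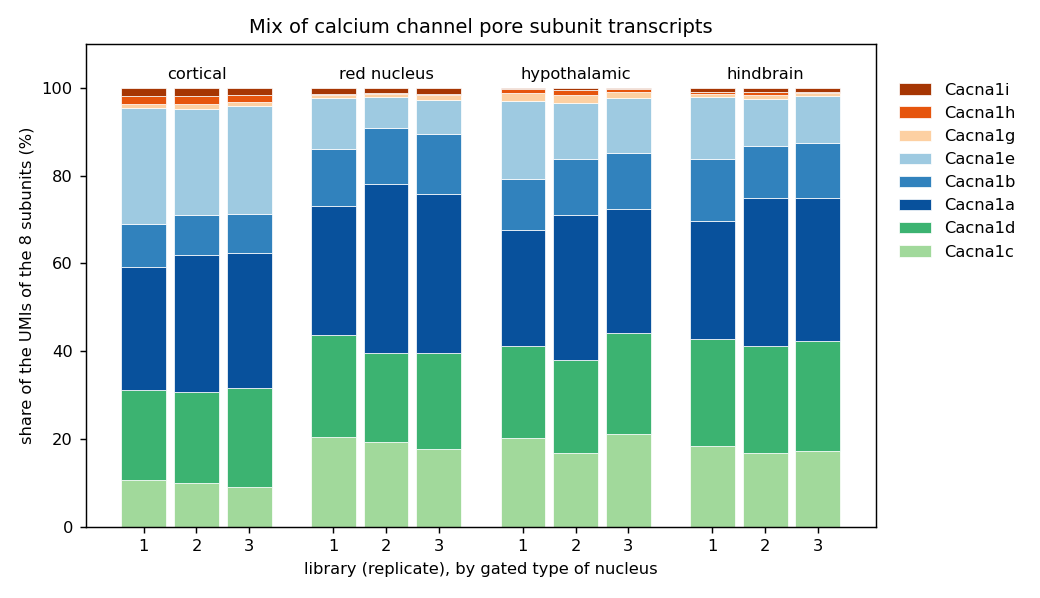
Stacked bars give the share (%) of each subunit among the UMIs of the 8 subunits, for each library of each gated type, with the L-type genes at the bottom in green, the Cav2 genes in blue and the T-type genes in orange at the top. The Cacna1e segment is widest in the 3 cortical bars, at 24.3% to 26.4%, and the Cacna1c segment is narrowest there, at 9.03% to 10.6%.

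These shares are of UMIs and are not corrected for gene length, and the sources used here do not say whether introns were counted. Levels are therefore compared between genes only per kilobase. Levels here are CPM on the scale of the edgeR fit (TMM, trimmed mean of M-values), in which each total is multiplied by a factor estimated from most of the genes. Per kilobase of gene span, Cacna1a led in every type, at a level of 3.98 per kb in cortical, 2.57 in red nucleus, 2.59 in hypothalamic and 2.55 in hindbrain nuclei. In cortical nuclei Cacna1b followed at 1.95 per kb, then Cacna1e at 1.70, Cacna1d at 1.58 and Cacna1h at 1.05, with Cacna1c at 0.541, Cacna1i at 0.522 and Cacna1g at 0.459 close together. Per kilobase of exon the order there was Cacna1a at 87.8, Cacna1d at 56.5, Cacna1e at 33.3, Cacna1b at 31.3, Cacna1c at 15.6, Cacna1h at 6.37, Cacna1i at 5.87 and Cacna1g at 2.98, so the ranks below Cacna1a depend on the length used. Per kilobase of span, Cacna1e in red nucleus nuclei stood at 0.332 per kb and Cacna1h at 0.0974 per kb, and in hypothalamic nuclei Cacna1i was the lowest at 0.0756 per kb. The T-type genes are short, so their part grew from 4.49% of UMIs to 17.2% of the level per kilobase of span in cortical nuclei, against 8.52% in red nucleus, 12.4% in hypothalamic and 8.30% in hindbrain nuclei. Per kilobase of exon the same shares were 6.35%, 3.24%, 3.96% and 2.91%, so on both lengths cortical nuclei had the highest T-type share.

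**Figure D2:**
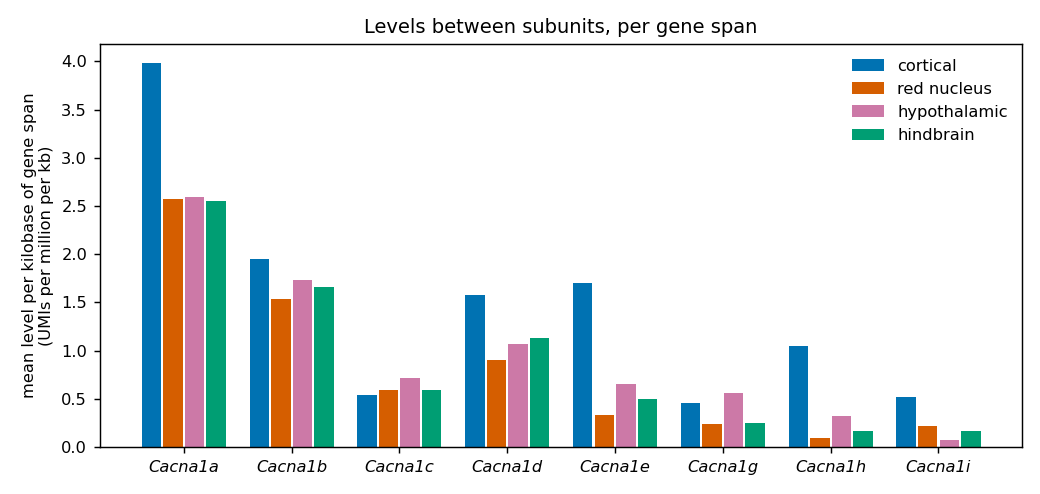
Bars give the mean level over 3 libraries per kilobase of gene span (CPM on the TMM scale, per kb) for the 8 subunits in the 4 types. Cacna1a has the highest bar in each type, and Cacna1h reaches 1.05 per kb in cortical nuclei and 0.0974 per kb in red nucleus nuclei.

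The first comparison set cortical nuclei against the mean of the other 3 types, taken on the log scale as in all such comparisons. Summed over the 8 subunits, the level in cortical nuclei was 3377, 3424 and 3238 in replicates 1, 2 and 3, against means of 1865 in red nucleus, 2071 in hindbrain and 2229 in hypothalamic nuclei, although on plain CPM cortical (2675 ± 109) and hypothalamic nuclei (2580 ± 37.3) lay close together. Of the 8 subunits, 3 were called higher and 0 lower in cortical nuclei, where a call is an adjusted p under 0.05 and a log2 fold change of at least 1 in either direction (edgeR quasi-likelihood test, Benjamini-Hochberg over 16117 genes). Over all genes 23.0% were called in this comparison, 9.46% higher and 13.6% lower. The median log2 fold change of the 8 subunits was 0.63, beside -0.03 over all genes tested. In bulk sums of a type, fewer cells with a transcript and less RNA per cell cannot be told apart.

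Cacna1e, the R-type gene, had a level of 892, 832 and 797 in cortical nuclei of replicates 1, 2 and 3. It had 414, 284 and 270 in hypothalamic, 297, 223 and 217 in hindbrain and 222, 132 and 138 in red nucleus nuclei. The lowest cortical library lay well above the highest of any other type. The log2 fold change of cortical against the others was 1.87 ± 0.07 (standard error, edgeR adjusted p = 2.26e-13), a 3.65-fold difference. Relative to the 8 subunits together, that is as a share of the mix, it was 1.16 ± 0.07 (edgeR adjusted p = 1.4e-10).

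Cacna1h, a T-type gene, showed the widest range of the 8. Its level was 64.0, 66.8 and 55.8 in cortical nuclei, 17.3, 23.6 and 17.2 in hypothalamic, 10.7, 12.6 and 6.83 in hindbrain and 6.44, 5.63 and 5.32 in red nucleus nuclei. The 4 types did not overlap in any library, but hindbrain and red nucleus nuclei were not told apart (edgeR adjusted p = 0.0579). The log2 fold change of cortical against the others was 2.59 ± 0.11 for the level (edgeR adjusted p = 1.54e-12, 6.02-fold) and 1.88 ± 0.12 for the share (edgeR adjusted p = 4.4e-10). The counts behind the low values were small, with 8 to 11 UMIs per library in red nucleus and 7 to 15 in hypothalamic nuclei.

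Cacna1i, the T-type gene best known from the thalamus, had a level of 59.2, 62.8 and 51.8 in cortical nuclei, 25.8, 22.0 and 24.8 in red nucleus, 18.3, 19.4 and 16.8 in hindbrain and 7.39, 12.6 and 5.16 in hypothalamic nuclei. Each type kept to its own range, but red nucleus and hindbrain nuclei were not told apart (edgeR adjusted p = 0.0996). The log2 fold change of cortical against the others was 1.89 ± 0.11 for the level (edgeR adjusted p = 4.3e-11) and 1.18 ± 0.11 for the share (edgeR adjusted p = 7.05e-08), and the share fell to 0.97, under the size threshold, when every nucleus was thinned to 5000 UMIs.

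The other 5 subunits differed from the other types by less than the size threshold. On the TMM scale, Cacna1a (1002 ± 65.3) and Cacna1d (713 ± 16.8) had levels in cortical nuclei above those of every other type. Their log2 fold changes were 0.64 ± 0.05 and 0.62 ± 0.06. Where library totals were the scale these were 0.20 and 0.19, which is 0.67 and 0.65 above the median gene there. On plain CPM, Cacna1d was highest in hypothalamic nuclei in replicate 3, at 584 CPM. Cacna1g had a log2 fold change of 0.53 ± 0.11. Cacna1b, the N-type gene, had 0.25 ± 0.06 on this scale, and -0.18 where library totals were the scale, which is 0.28 above the median gene on that scale. Cacna1c had -0.22 ± 0.07 for the level and -0.92 ± 0.07 for the share (edgeR adjusted p = 1.44e-09), which is a 1.90-fold lower share under the size threshold. Of the shares, 3 were called higher and 0 lower in cortical nuclei. Relative to the 8 subunits, 39.4% of all genes were called, 3.99% higher and 35.4% lower. With library totals as the scale the median gene shifted to -0.47 in the cortical comparison, 0.25 in the hypothalamic and 0.16 in the hindbrain, and Cacna1e, Cacna1h and Cacna1i stood at 1.90, 2.62 and 1.93 above that median in cortical nuclei.

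**Figure D3:**
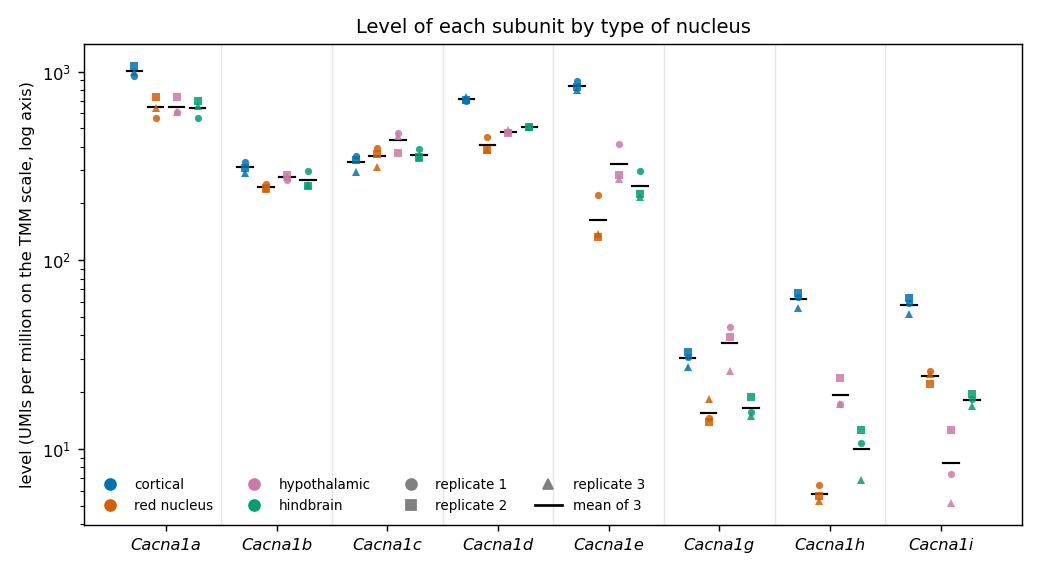
Points give the level of each subunit in each library (CPM on the TMM scale, log axis), coloured by type and shaped by replicate, with a bar at the mean of 3. Cacna1e, Cacna1h and Cacna1i are highest in cortical nuclei in each library, whereas Cacna1b and Cacna1c lie within a narrow band over the types.

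Markers of other cells moved with these results as follows. Slc17a7, the vesicular glutamate transporter gene typical of cortex, was at 74.3 to 130 CPM in cortical nuclei and at 9.96 to 47.2 CPM over the libraries of the other types. Without the nuclei outside the cortical type that held a UMI of Fezf2, the log2 fold changes in cortical nuclei were 1.92 for Cacna1e, 2.65 for Cacna1h and 1.91 for Cacna1i. The microglial list (Cx3cr1, Csf1r and P2ry12) summed to 20.2 to 36.8 CPM in cortical nuclei and 51.8 to 94.7 CPM in the other types, with all 3 genes detected in each, and the oligodendrocyte list (Mbp, Mog and Mag) to 50.6 to 63.9 CPM in cortical and 10.6 to 39.2 CPM in the other types. Their part in the results was not tested. Depth also moved with the types, and with every nucleus thinned to 5000 UMIs the cortical values were 1.73 for Cacna1e, 2.79 for Cacna1h and 1.58 for Cacna1i.

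The share of nuclei with a transcript was compared at equal depth. After thinning to 5000 UMIs, which left 837, 1318 and 1734 cortical, 111, 85 and 109 red nucleus, 42, 40 and 43 hypothalamic and 693, 722 and 1033 hindbrain nuclei, Cacna1e was found in 92.8% ± 0.393 of cortical, 73.6% ± 10.5 of hypothalamic, 61.4% ± 2.07 of hindbrain and 53.5% ± 4.55 of red nucleus nuclei. Unthinned, the means were 97.5%, 83.4%, 79.3% and 76.9%. Cacna1h was found in 22.9% ± 2.34, 8.91% ± 5.39, 4.47% ± 1.55 and 2.70% ± 1.56 of thinned nuclei in the same order, and in 55.7%, 18.1%, 11.1% and 8.38% unthinned. As a measure of free RNA, the orexin gene Hcrt was found in 24.4% ± 11.7 of thinned cortical, 26.9% ± 10.4 of red nucleus and 29.3% ± 16.3 of hindbrain nuclei, cells not known to make it, against 46.6% ± 12.3 of hypothalamic nuclei. No background of that kind, in nuclei not known to make the transcript, could be measured for the subunits. Their level in barcodes with too few genes to count as nuclei was measured and is given below. In those of replicate 2, Hcrt was at 1036 CPM and Cacna1h at 77.3 CPM. Cacna1h lay above every type of that library there, and the other subunits did not. What part of the low shares is free RNA was not tested. Cacna1s, the skeletal muscle gene, was found in 0.0637% of thinned cortical, 0.127% of hindbrain, 0.392% of red nucleus and 0.775% of hypothalamic nuclei. It rested on 0 to 6 UMIs per library and type. Cacna1f rested on 0 to 160 UMIs, with a mean level of 4.00 in cortical, 2.53 in hindbrain, 1.74 in red nucleus and 0.525 in hypothalamic nuclei, and its log2 fold change in cortical nuclei was 1.53 ± 0.41 (edgeR adjusted p = 0.00368).

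The second comparison set red nucleus nuclei against the other types, and the R-type and the T-type gene Cacna1h were low against their mean. Neither gene was called against hindbrain nuclei alone. On the log2 scale hindbrain nuclei lay higher by 0.61 for Cacna1e (edgeR adjusted p = 0.000602) and by 0.80 for Cacna1h (edgeR adjusted p = 0.0579). Red nucleus neurons give rise to the rubrospinal tract. Of the 8 subunits 0 were called higher and 2 lower, beside 7.20% of all genes called, 4.87% higher and 2.33% lower, and the median of the 8 was -0.34 against 0.03 over all genes tested. Cacna1e, at 222, 132 and 138, had a log2 fold change of -1.33 ± 0.09 (edgeR adjusted p = 9.34e-09), and Cacna1h, at 6.44, 5.63 and 5.32, had -2.01 ± 0.24 (edgeR adjusted p = 6.16e-06). Replicate 1 was the high library of Cacna1e and fell inside the range of hindbrain nuclei (217 to 297). As shares of the mix, Cacna1h was called lower at -1.60 ± 0.25, and Cacna1e at -0.91 ± 0.09 stayed under the size threshold, which it passed at -1.02 without replicate 1. Of the shares 1 was thus called, beside 13.4% of all genes relative to the 8 subunits, 12.3% higher and 1.07% lower. Cacna1d, at 450, 386 and 386, was the lowest of the 4 types on average, with a log2 fold change of -0.46 ± 0.06. Cacna1g at -0.75 ± 0.17 passed the size threshold at -1.02 without replicate 3, and Cacna1i at 0.20 ± 0.17 lay between types that it differed from in both directions, below cortical and above hypothalamic nuclei.

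In hypothalamic nuclei 1 of the 3 T-type genes, Cacna1i, was low. Of the 8 subunits 1 was called lower and 0 higher, beside 8.12% of all genes called, 4.67% higher and 3.45% lower, and the medians were 0.01 for the 8 and -0.03 for all genes tested. Cacna1i, the gene called, had levels of 7.39, 12.6 and 5.16 and a log2 fold change of -1.77 ± 0.28 (edgeR adjusted p = 0.000144), and its share of the mix was called too at -1.69 ± 0.28, beside 7.97% of all genes relative to the 8 subunits, 5.22% higher and 2.75% lower. The level rested on 3 to 8 UMIs per library. Cacna1g had its highest mean here, with levels of 44.4, 39.4 and 25.8 on 15 to 25 UMIs per library, against 30.8, 32.8 and 27.0 in cortical, 15.6, 18.8 and 14.9 in hindbrain and 14.5, 13.8 and 18.3 in red nucleus nuclei. The ranges of hypothalamic and cortical nuclei overlapped in replicate 3, and the other types lay below both. Its log2 fold change was 0.85 ± 0.21 (edgeR adjusted p = 0.00701), under the size threshold, and 1.05 without replicate 3. Cacna1c also had its highest mean in hypothalamic nuclei, at 434 ± 53.7, with a log2 fold change of 0.31 ± 0.08. Cacna1a, at -0.20 ± 0.07, was 0.08 where library totals were the scale, which is -0.16 relative to the median gene there, and Cacna1e, at -0.02 ± 0.10, was 0.27, or 0.02 relative to that median.

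The hypothalamic type joins 2 gates, and Cacna1e differed between them. Nuclei that passed the Ros1 and Rfx2 gate alone (55 nuclei) held the orexin gene Hcrt at 1743 to 2506 CPM and Oxt at 0 to 20.6 CPM, and those that passed the Sim1 gate alone (92 nuclei) held Hcrt at 43.6 to 119 CPM and Oxt, the oxytocin gene of the paraventricular nucleus, at 228 to 779 CPM. In a fit of 5 groups, added after the levels had been seen, the level of Cacna1e was 620, 412 and 420 in the Ros1 and Rfx2 nuclei and 275, 191 and 218 in the Sim1 nuclei of replicates 1, 2 and 3. The groups did not overlap, and each library showed the same direction. The log2 fold change was 1.07 ± 0.16 (edgeR adjusted p = 7.43e-05), and Cacna1e was the 1 subunit of 8 called, beside 4.18% of 13442 genes called, 1.78% higher and 2.40% lower. Cacna1h, at 17.7, 34.9 and 46.1 against 18.3, 15.4 and 5.19, had 1.44 ± 0.55 with an edgeR adjusted p of 0.163, and in replicate 1 the groups were alike. Cacna1g, at 23.6, 31.4 and 23.0 against 59.6, 49.2 and 28.5, was lower in the Ros1 and Rfx2 nuclei of each library but had an edgeR adjusted p of 0.397. With the Ros1 and Rfx2 nuclei alone as the hypothalamic type, Cacna1e had a log2 fold change of 0.49 against the other types (edgeR adjusted p = 0.00922), and with the Sim1 nuclei alone its share of the mix had -0.41 (edgeR adjusted p = 0.033), so the value of the joint type depends on which gate supplies its nuclei.

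In hindbrain nuclei none of the 8 subunits was called by edgeR or by DESeq2 (0 of 8), beside 5.14% of all genes called, 3.85% higher and 1.29% lower. At an unadjusted p under 0.05 there were 5. The share of all genes at that cutoff is not given here, so this count cannot be set against it. All 8 log2 fold changes were negative, with a median of -0.28 against 0.03 over all genes tested. Those of Cacna1b, Cacna1c and Cacna1d were positive where library totals were the scale, on which they lay at -0.10, -0.06 and -0.06 relative to the median gene. The largest log2 fold change was that of Cacna1h, at -0.95 ± 0.16 (edgeR adjusted p = 0.000372), and it passed the size threshold at -1.10 without replicate 2, the library in which hindbrain nuclei had their highest level of it. Without the nuclei outside the cortical type that held a Fezf2 UMI it was -1.22. Cacna1g had -0.63 ± 0.12 and Cacna1e -0.52 ± 0.08. As shares, 0 of 8 were called by either tool, beside 6.83% of all genes called relative to the 8 subunits, 5.99% higher and 0.844% lower. An unadjusted p under 0.05 was found for 6 of the shares, again without the share of all genes at that cutoff. Cacna1d was steady in hindbrain nuclei, with levels of 510, 509 and 510 in the 3 libraries.

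Within the hindbrain type, nuclei were divided by transmitter genes as a description. Nuclei with at least 2 UMIs of Slc17a6 and none of 4 inhibitory genes (165, 286 and 387 nuclei) had Cacna1e at 212, 201 and 205 CPM, and nuclei of neither class (720, 460 and 680 nuclei) had 336, 296 and 258 CPM. The first group was lower in each library. Its depth was greater, with a median of 10123, 19935 and 13043 UMIs against 6913, 13136 and 9514. The cortical marker Bcl11b moved with the division too, at 7.63, 19.8 and 11.4 CPM in the first group and 29.6, 59.2 and 29.4 CPM in the second. The part of depth and of cortical transcripts in the difference was not tested. Cacna1h was at 4.36, 8.81 and 4.96 CPM in the first group and at 13.1, 18.9 and 8.66 CPM in the second, again lower in each library. Cacna1c ran the other way, at 448, 442 and 388 CPM against 371, 354 and 360 CPM. Nuclei of the inhibitory class were few, at 23, 7 and 32, and their Cacna1e was spread over 86.9, 328 and 149 CPM.

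**Figure D4:**
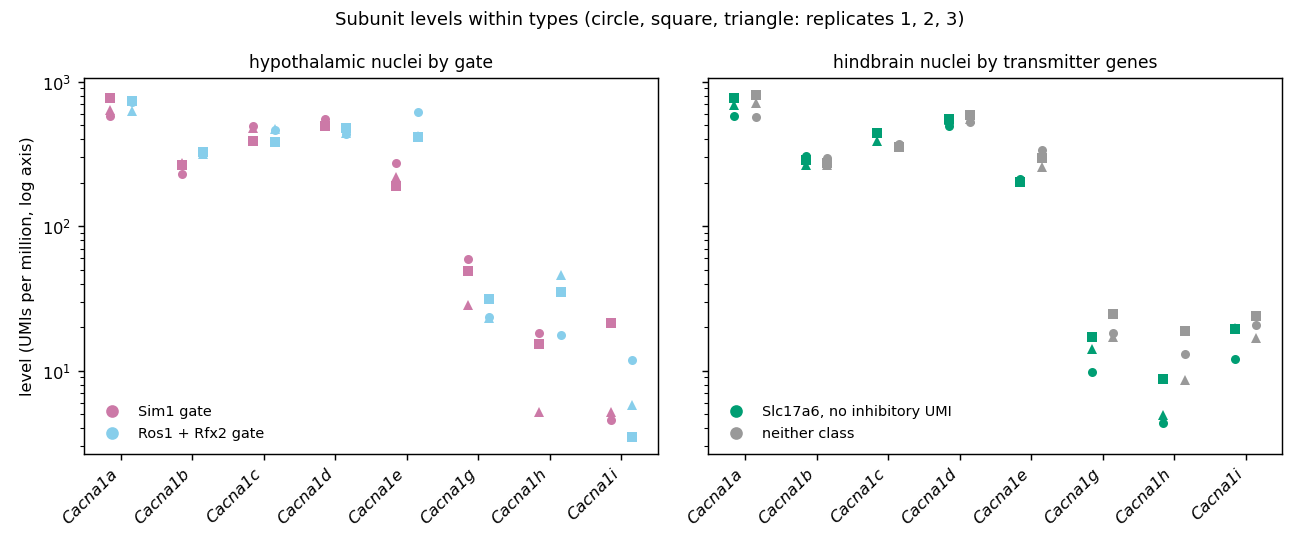
Points give the level of each subunit (CPM, log axis) within 2 types, by replicate (circle, square and triangle for 1, 2 and 3), on the scale of the 5-group fit for hypothalamic nuclei on the left and in plain CPM for hindbrain nuclei on the right. Cacna1e is higher in the Ros1 and Rfx2 nuclei than in the Sim1 nuclei, and lower in hindbrain nuclei with Slc17a6 than in those of neither class.

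Placed in order over the 4 types, each subunit gave 3 pairs of neighbours, 24 in all, of which 4 were called and 10 had an edgeR adjusted p under 0.05. The count joins unlike pairs. Of all genes, 21.9% to 22.4% were called in pairs with cortical nuclei and 4.10% to 6.86% in the other pairs. The share of all genes past the p threshold alone is not given here. For Cacna1a the order was cortical, hypothalamic, red nucleus and hindbrain, and the last 3 were not told apart. For Cacna1b no neighbours were told apart, and the ends of the order, cortical and red nucleus, differed by 0.34 on the log2 scale (edgeR adjusted p = 0.00109). For Cacna1c, which was highest in hypothalamic and lowest in cortical nuclei, no neighbours were told apart either, and the ends differed by 0.40 (edgeR adjusted p = 0.0027). Cacna1d fell from cortical to hindbrain, hypothalamic and red nucleus nuclei, with the first step of 0.48 past the p threshold (edgeR adjusted p = 9.67e-06). Cacna1e, Cacna1h and Cacna1i each had a called step next to cortical nuclei, of 1.41, 1.67 and 1.27. Below that step, Cacna1i in hindbrain was called above hypothalamic nuclei at 1.08 (edgeR adjusted p = 0.034), a call that 10 of 16 alternatives lost.

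Over the 6 pairs of types, 14 of 48 comparisons were called. The 3 pairs with cortical nuclei gave 3 each, for Cacna1e, Cacna1h and Cacna1i, beside 21.9%, 22.4% and 22.0% of all genes called and 8.63%, 10.4% and 8.67% called higher for red nucleus, hypothalamic and hindbrain nuclei. The largest was that of Cacna1h against red nucleus nuclei, at 3.45 ± 0.20 (10.9-fold, edgeR adjusted p = 1.14e-10). Red nucleus and hypothalamic nuclei differed in 3 subunits, beside 6.86% of all genes, 3.61% higher and 3.25% lower, with Cacna1g at -1.20 ± 0.25 and Cacna1h at -1.78 ± 0.36 lower and Cacna1i at 1.47 ± 0.31 higher in red nucleus nuclei. Cacna1e, at -0.99 ± 0.12 (edgeR adjusted p = 1.84e-05), lay just under the size threshold for this pair and was called lower in red nucleus nuclei by 11 of 16 alternatives, with DESeq2 among them. Over the alternatives Cacna1e ran from -1.49, with the Ros1 and Rfx2 gate alone, to -0.40. Hypothalamic and hindbrain nuclei differed in 2, beside 4.12% of all genes, 2.12% higher and 2.00% lower, with Cacna1g at 1.12 ± 0.22 higher and Cacna1i at -1.08 ± 0.30 lower in hypothalamic nuclei. Cacna1h, at 0.99 ± 0.28 (edgeR adjusted p = 0.0374), also lay just under the size threshold and was called higher in hypothalamic nuclei by 8 of 16 alternatives. Its value depended on the alternative, from 0.18 to 1.63, the latter with the Ros1 and Rfx2 gate alone. Red nucleus and hindbrain nuclei differed in 0 by edgeR and by DESeq2, beside 4.10% of all genes, 2.26% higher and 1.84% lower. An unadjusted p under 0.05 was found for 4 subunits, and the share of all genes at that cutoff is not given here. The 5 calls among types other than cortical were each lost under at least 3 of 16 alternatives. Between red nucleus and hypothalamic nuclei, the call of Cacna1g was lost without replicate 1 (-1.03, edgeR adjusted p = 0.0654) and without replicate 2 (-1.01, edgeR adjusted p = 0.0873). That of Cacna1h was lost without replicate 2 (-1.57, edgeR adjusted p = 0.0527), and that of Cacna1i without replicate 1 (1.38, edgeR adjusted p = 0.0501) and without replicate 3 (1.16, edgeR adjusted p = 0.082). Between hypothalamic and hindbrain nuclei, the call of Cacna1g was lost without replicate 1 (0.94, edgeR adjusted p = 0.0677), and that of Cacna1i without replicate 1 (-1.03, edgeR adjusted p = 0.18) and without replicate 3 (-0.86, edgeR adjusted p = 0.249). The hypothalamic gate mattered too. With the Ros1 and Rfx2 gate alone, Cacna1g lost both calls, at -0.69 (edgeR adjusted p = 0.312) for red nucleus against hypothalamic and 0.60 (edgeR adjusted p = 0.396) for hypothalamic against hindbrain nuclei. With the Sim1 gate alone, Cacna1h in red nucleus against hypothalamic nuclei was -0.98 (edgeR adjusted p = 0.32). The calls of Cacna1i in both pairs were lost there as well. Of the calls with cortical nuclei, Cacna1i against red nucleus fell under the size threshold with library totals as the scale (0.93) and with thinning (0.88), and Cacna1e against hypothalamic nuclei did so with library totals (0.88) and with the Ros1 and Rfx2 gate alone (0.91).

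**Figure D5:**
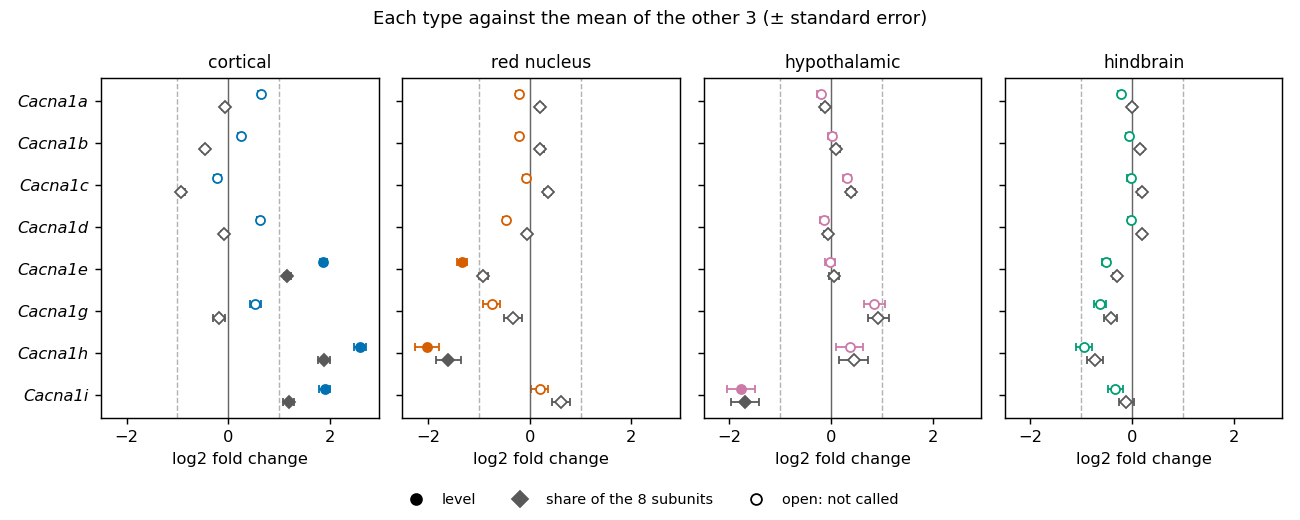
Each panel sets a type against the mean of the other 3, with the log2 fold change of each subunit and its standard error for the level (circles) and for the share of the 8 subunits (diamonds), filled where called and open where not, and dashed lines at the size threshold. Filled circles are Cacna1e, Cacna1h and Cacna1i to the right in cortical nuclei, Cacna1e and Cacna1h to the left in red nucleus nuclei and Cacna1i to the left in hypothalamic nuclei, and the hindbrain panel holds none.

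The pore subunits work with auxiliary subunits, of which the beta and alpha2delta subunits bring the channel to the membrane and set its gating, and the gamma family, several members of which act on AMPA receptors, is listed with them. Of 16 listed genes 14 passed the filter on low counts, and in cortical nuclei 3 were called higher and 3 lower. Levels of the other types in these lists are plain means, whereas the fit averages the types on the log scale. The ratio of printed levels can therefore differ from the fold change that was called. Cacnb4, a beta subunit, had a level of 1231 ± 127 in cortical nuclei and 186 ± 24.3 in the mean of the other types, and Cacna2d3, an alpha2delta subunit, had 1886 ± 214 against 353 ± 78.6. Cacng4 (1.47 ± 0.370 against 15.3 ± 2.42) and Cacng5 (0.581 ± 0.142 against 4.71 ± 2.23) were the lowest in log2 fold change, at -2.99 and -2.73. In red nucleus nuclei 1 was called higher and 3 lower, with Cacna2d1, a binding site of gabapentin, at 1680 ± 83.7 against 738 ± 100.5. In hypothalamic nuclei 2 were called higher, Cacng4 at 27.5 ± 4.49 and the beta subunit Cacnb2 at 747 ± 28.7 against 394 ± 20.6, and 2 lower, Cacnb4 at 130 ± 18.0 against 553 ± 60.0 and Cacng8 at 30.2 ± 8.74 against 71.3 ± 4.09. In hindbrain nuclei 2 were called higher, Cacng4 (15.4 ± 3.09) and Cacng5 (5.20 ± 0.713), and 0 lower. Both had a higher mean in hypothalamic nuclei, where Cacng5 stood at 6.58 ± 2.85 and was not called. The medians of the list were 0.07, -0.18, -0.17 and -0.03 in cortical, red nucleus, hypothalamic and hindbrain nuclei.

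Regulators and presynaptic partners of the channels formed the next list. Of 16 listed genes 14 were tested, and 2 were called higher and 2 lower in cortical nuclei. Cabp1, a calcium-binding protein that acts on L-type and P/Q-type channels, had 236 ± 14.7 against 84.9 ± 5.97, and Rimbp2, which links Cav2 channels to the release site, had 409 ± 35.2 against 185 ± 27.8. Stac, an adaptor of L-type channels, was low in cortical nuclei (3.11 ± 1.17 against 31.2 ± 2.70) and high in hypothalamic nuclei (76.4 ± 8.94 against 6.79 ± 2.27). The small GTPase gene Gem, an inhibitor of calcium channels, was low in cortical (0.837 ± 0.119 against 5.21 ± 0.666) and high in red nucleus nuclei (8.41 ± 4.50 against 2.69 ± 0.953). In hypothalamic nuclei Rrad, of the same GTPase family, was higher on 13 UMIs in all, and Cabp1 was lower at 49.8 ± 6.34 against 147 ± 8.71. Red nucleus nuclei had 1 higher and 0 lower, and hindbrain nuclei had 0 called.

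Effectors that calcium activates made up the third list. All 12 were tested, and 7 were called higher and 3 lower in cortical nuclei, with a list median of 1.50. Itpr1, the inositol trisphosphate receptor of neuronal calcium stores, had 607 ± 48.7 in cortical nuclei against 75.6 ± 14.4, with a log2 fold change of 3.04 ± 0.09. Kcnn1, a small-conductance calcium-activated potassium channel, had 7.31 ± 1.57 in cortical nuclei and 0 UMIs in hypothalamic nuclei. With 3 counts over the type taken as the floor, it was at least 2.38-fold lower there than the mean level of the other types. That floor is a level of 1.85, whereas Kcnn1 stood at 4.10 ± 1.51 in red nucleus and 1.79 ± 0.456 in hindbrain nuclei. Hypothalamic and hindbrain nuclei can therefore not be told apart by it. Kcnn3, of the same channel family, was low in cortical nuclei (3.46 ± 0.906 against 36.0 ± 3.72) and high in hindbrain (41.0 ± 1.22 against 23.5 ± 4.11) and hypothalamic nuclei (43.9 ± 8.40 against 22.5 ± 1.40). Kcnmb2, a beta subunit of the large-conductance channel, was low in cortical nuclei (6.80 ± 2.70 against 78.6 ± 15.5) and high in red nucleus nuclei (118 ± 30.4 against 41.5 ± 6.61). It was not particular to red nucleus nuclei, as it was called higher in hindbrain nuclei too (78.5 ± 3.90 against 54.7 ± 16.8). Red nucleus nuclei had 2 higher, with Itpr2 at 42.8 ± 3.90 against 11.8 ± 2.76, and 2 lower, Kcnmb4 and Itpr1. Itpr1 was not low there in particular, at 71.1 ± 21.7 in red nucleus, 62.5 ± 11.2 in hypothalamic and 93.0 ± 18.7 in hindbrain nuclei. Hypothalamic nuclei had 1 higher and 4 lower, among them Kcnn2 at 87.4 ± 22.4 against 430 ± 36.5, and hindbrain nuclei had 3 higher and 1 lower, the ryanodine receptor gene Ryr3 at 152 ± 23.5 against 449 ± 53.2.

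Of 11 genes for calcium buffers and clearance, 4 were called higher and 4 lower in cortical nuclei. The plasma membrane pump gene Atp2b1 had 1032 ± 60.4 against 226 ± 9.14 and the exchanger gene Slc8a2 had 49.1 ± 5.28 against 12.8 ± 2.42, whereas the pump gene Atp2b4 had 16.9 ± 4.02 against 73.1 ± 3.06 and Calb2, the calretinin gene, 1.83 ± 0.142 against 10.2 ± 2.37. Red nucleus nuclei had 2 higher and 0 lower, Pvalb (parvalbumin, 9.12 ± 3.33 against 1.79 ± 0.300) and Atp2b4, and Pvalb is also a marker of that type. Atp2b4 was not particular to red nucleus nuclei, at 85.6 ± 15.4 there and 80.9 ± 2.47 in hindbrain nuclei. Hypothalamic nuclei had 2 higher and 0 lower, Calb1 (23.7 ± 11.0 against 1.41 ± 0.843) and Calb2, and hindbrain nuclei had 1 lower, Calb1. The low level of Calb1 was not particular to hindbrain nuclei, at 0.899 ± 0.324 there, 1.06 ± 0.583 in cortical and 2.26 ± 1.96 in red nucleus nuclei. Beside all lists stand the shares of all genes called, 23.0%, 7.20%, 8.12% and 5.14% in cortical, red nucleus, hypothalamic and hindbrain nuclei.

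Over the 12 sums of 4 types in 3 libraries, the genes whose level ran most like each subunit were named by Pearson correlation (log2 of CPM + 1, library mean subtracted), as a description over sums that share libraries, depth and the type contrast. For Cacna1e these were Dab1 (r = 0.992), an adaptor of reelin signalling, and Sox5os4 (r = 0.992). For Cacna1h they were Camk2a (r = 0.991), the alpha subunit of a calmodulin-dependent kinase, and Tusc3 (r = 0.990), and for Cacna1i Ralgapa2 (r = 0.988) and Pip4k2a (r = 0.986). Cacna1g was most like Wdr17 (r = 0.958) and Wdfy1 (r = 0.957), Cacna1a like Kif5c (r = 0.967) and Arhgap17 (r = 0.943), and Cacna1b like Bub3 (r = 0.987) and Arfgef3 (r = 0.974). Cacna1c was most like Idh2 (r = 0.994) and Qtrt1 (r = 0.992), and Cacna1d like Prr16 (r = 0.966) and Gfra2 (r = 0.960).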

How the data were processed

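UMI counts per gene and barcode were deposited by the authors for 3 libraries as matrices of 32285 genes. The file headers name Cell Ranger 6.1.1 and the submitters' processing notes name Cell Ranger 7.0.1 and the mouse build mm10. Which version made the counts was not settled. The sources used here do not give intron counting, use of strand or the selection of barcodes. If introns were not counted, the levels per kilobase of span would not apply.

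Of 2710, 11094 and 3713 barcodes, 2679, 2769 and 3579 held 1000 or more genes with no more than 5% mitochondrial UMIs. Scrublet (Scanpy 1.11.5, expected rate 6%) marked 0.560%, 2.13% and 1.45% of them as doublets, and these were removed, which left 2664, 2710 and 3527 nuclei. Raw counts were summed per library and type, and the 12 sums were fitted with edgeR 4.0.16 (R 4.3.3) by the quasi-likelihood test, with TMM, filterByExpr and the library as a block, which left 6 residual degrees of freedom and 16117 genes. The common biological coefficient of variation was 0.0862. All types come from the same libraries, so the block pairs them by design. Standard errors were taken as log2 fold change over the root of F. For shares of the mix the library size was the summed counts of the 8 subunits, and shares are tied, so an abundant member moves the others. A set of levels that does not overlap between types is described, not tested.

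The subunits, gene lists and markers were chosen with earlier results of these data known. Named were the 8 subunits, Cacna1s and Cacna1f, per list and type at most the 2 called genes with the highest and the 2 with the lowest log2 fold change, and per subunit the 2 genes with the highest correlation among tested genes with a mean of at least 20 CPM. Genes named only as markers, overlaps or gates fall outside this rule. Some marker genes of the lists are not reported here and were left out of the sums. Alternatives were DESeq2 1.42.0, another normalisation, no filter on low counts, no library block, each replicate left out, doublets kept, doubled gates, nuclei with more than 1 gate left out, at least 2000 genes, thinning to 5000 UMIs, and, added after the data had been seen, library totals as the scale, each hypothalamic gate alone, and no Fezf2 UMI outside cortical nuclei. The fit was tested on simulated data.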

Additional observations from a re-analysis of the deposited data

Results flagged for a closer look

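Barcodes and nuclei outside the comparisons also held transcripts of the subunits. In untyped nuclei the summed level of the 8 subunits was 2107, 2287 and 2191 CPM in replicates 1, 2 and 3, inside the range of the types in the same libraries. Barcodes with fewer than 1000 genes, of which there were 31, 8324 and 134, held 1319, 1398 and 1207 CPM, on 46, 8232 and 105 UMIs of the subunits. They were not used in any comparison.

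Cacna1h was high in 1 set of them. In the 8324 low-gene barcodes of replicate 2 it reached 77.3 CPM on 455 UMIs, above every type of that library, where the highest was cortical at 54.5 CPM and the lowest 5.83 CPM. No other subunit with at least 3 UMIs in such barcodes did so in any library. The low-gene barcodes of replicates 1 and 3 held 0 and 1 UMIs of Cacna1h, too few to compare. Other transcripts were high in the same barcodes of replicate 2, with Hcrt at 1036 CPM, Tox at 320 CPM and 598 UMIs of the cortical marker Crym.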

How the results depend on the processing

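In 1728 recomputed values of single subunits the sign changed in 71, and in 8 of these an adjusted p was under 0.05 in either fit. With library totals as the scale these were Cacna1b in cortical nuclei at -0.18 against the other types, -0.37 against hypothalamic and -0.18 against hindbrain nuclei, and Cacna1a at 0.084 and Cacna1e at 0.27 in hypothalamic nuclei. That scale shifts all genes, and relative to the median gene Cacna1b against the other types was 0.28 and Cacna1a -0.16, the signs of the fit reported. With the Ros1 and Rfx2 gate alone Cacna1e in hypothalamic nuclei was 0.49, and with the Sim1 gate alone it was -0.20 against hindbrain nuclei and its share -0.41. Of 166 recomputed values for the 11 called results of a type against the others, 1 lost its call and none changed sign. Members called in hypothalamic nuclei rose from 1 to 2 with library totals, without replicate 3, with doubled gates and with the Sim1 gate alone, and their shares from 1 to 2 under the last 3 of these. When each replicate was left out, the members called in hypothalamic nuclei ranged from 1 to 2 and the calls over all pairs from 11 to 13. In hindbrain nuclei they went from 0 to 1 without replicate 2, with the Ros1 and Rfx2 gate alone and without nuclei outside the cortical type that held a Fezf2 UMI. Shares called in red nucleus nuclei rose from 1 to 2 without replicate 1 and with the Ros1 and Rfx2 gate alone. Calls over all pairs fell from 14 to 9 with thinning, which leaves fewer UMIs and fewer nuclei. For Cacna1i in cortical against red nucleus nuclei the log2 fold change fell from 1.27 to 0.88. For Cacna1g in red nucleus against hypothalamic nuclei it went from -1.20 to -0.65. For Cacna1i in red nucleus against hypothalamic nuclei it did not shrink, at 1.47 and 1.51, but the call was lost. The cause of these changes in calls was not tested.

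Without the library block none of 121 results changed its call, with 3 members called in cortical, 2 in red nucleus, 1 in hypothalamic and 0 in hindbrain nuclei and 14 over all pairs. With library totals, 18.7% of the calls over all genes in cortical nuclei were higher, against 41.1% in the fit reported, and in hypothalamic nuclei 81.2% against 57.5%. Of 32 levels, that of Cacna1c in hindbrain nuclei moved by over 1 SD as a mean of single nuclei, to 373 CPM. Small counts of Cacna1h, Cacna1i and Cacna1g limit the hypothalamic and red nucleus values.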
